A study of Mus musculus with 32 samples.

Results

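The ion and phosphate solute carriers were taken as every gene whose symbol matched Slc4a, Slc8a, Slc9a, Slc12a, Slc13a, Slc17a, Slc20a, Slc24a, Slc26a or Slc34a followed by a number. The rule used no measured value, though it was chosen with earlier results of these data known. It found 70 members among the 55806 gene identifiers of the 4 count tables. They were measured by bulk RNA-seq in 32 libraries of mouse embryonic kidney, in 11 groups, in a study of mutant ENL. ENL, encoded by Mllt1, is a chromatin reader of acetylated histones, and the T1 and T3 alleles carry small in-frame changes of its YEATS domain that are found in Wilms tumour. Each mutant was heterozygous for a conditional knock-in allele (EnlT1/+ or EnlT3/+) that Cre switches on, and each ENL-WT control was Enl+/+ with the same Cre driver.

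In the Six2 groups, named Six2-ENL here, Cre came from the Six2-TGCtg/+ BAC transgene, which acts in nephron progenitors and so marks the nephron epithelium they form. In the Foxd1 groups, named Foxd1-ENL, Cre came from Foxd1GC/+, a knock-in at Foxd1 that acts in stromal progenitors and leaves 1 working copy of Foxd1 in controls and mutants alike. Whole kidneys at E18.5 (embryonic day) came from Six2-ENL WT, T1 and T3 (2 libraries each) and from Foxd1-ENL WT and T1 (3 each). Cells sorted for the tdTomato reporter came from Six2-ENL WT and T1 at E14.5 and at E18.5 (3 libraries in each of the 4 groups) and from Foxd1-ENL WT and T1 at E18.5 (4 each). The mice were on the C57BL/6J background. The sources used here do not say whether libraries of a group came from separate embryos, so each p-value measures only the spread between these libraries, which may be technical. In bulk RNA, fewer cells of a type and less RNA per cell cannot be told apart.

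Solute carriers of these families move sodium, chloride, bicarbonate, phosphate, sulfate, calcium and organic anions across cell membranes. In the kidney they do so in a fixed order along the nephron. The proximal tubule reclaims phosphate through Slc34a1 and Slc34a3, bicarbonate through Slc9a3 at the apical and Slc4a4 at the basolateral membrane, citrate and other dicarboxylates through Slc13a2 and Slc13a3, and urate and organic anions through Slc17a1 and Slc17a3. The thick ascending limb takes up salt through Slc12a1, and the distal convoluted tubule through Slc12a3, the targets of loop and thiazide diuretics. Intercalated cells of the collecting system secrete acid or base with Slc4a1, Slc26a4, Slc26a7 and Slc4a9. Other members, such as the potassium-chloride cotransporters and the sodium-proton exchangers of endosomes, work in most cells, and the vesicular glutamate transporters Slc17a6, Slc17a7 and Slc17a8 are best known from neurons.

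The members were sorted by these roles into 11 proximal tubule carriers, 3 carriers of the thick limb and distal tubule, 4 of intercalated cells, 18 widely expressed carriers, 11 neural carriers and 20 others. These lists too were drawn up with earlier results of these data known, so a pattern by list is a description. The rule also caught 3 genes by name alone that are not carriers: the scaffold proteins Slc9a3r1 and Slc9a3r2, which tether transporters below the apical membrane, and Slc4a1ap. Counting ignored strand, so reads of overlapping genes cannot be told apart. Slc13a2 shares 26.2% of its exonic bases with its antisense gene Slc13a2os, Slc9a4 shares 21.3% with Gm37435 and Gm35801, Slc26a10 shares 17.8% with B4galnt1, and Slc34a1 shares 11.7% with Pfn3.

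The start regions of 3 tubule carriers whose levels are followed below are printed. They were picked because they hold the letters TATAAA, among tubule carriers called lower in both T1 and T3 Six2-ENL whole kidneys. Other carriers that fell are not printed, so these regions do not show a feature that such carriers share. Each sequence is the 250 bases before the RefSeq start of transcription (build GRCm38.p6), written in the direction of transcription. Capitals mark TATAAA, the TATA box, in Slc13a2 (chr11:78422235-78422484, minus strand, where the capitals read TTTATA and so lie on the opposite strand), Slc12a3 (chr8:94328958-94329207, plus strand) and Slc26a4 (chr12:31559985-31560234, minus strand).
Slc13a2: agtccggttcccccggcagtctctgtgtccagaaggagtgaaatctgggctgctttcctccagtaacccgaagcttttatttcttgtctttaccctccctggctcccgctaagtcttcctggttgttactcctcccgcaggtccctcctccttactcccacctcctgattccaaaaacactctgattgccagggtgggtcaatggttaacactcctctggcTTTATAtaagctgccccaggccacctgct
Slc12a3: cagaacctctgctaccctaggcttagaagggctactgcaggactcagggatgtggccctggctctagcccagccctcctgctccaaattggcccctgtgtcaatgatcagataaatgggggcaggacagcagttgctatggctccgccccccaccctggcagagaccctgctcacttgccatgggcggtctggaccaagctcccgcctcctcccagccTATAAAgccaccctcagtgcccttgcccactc
Slc26a4: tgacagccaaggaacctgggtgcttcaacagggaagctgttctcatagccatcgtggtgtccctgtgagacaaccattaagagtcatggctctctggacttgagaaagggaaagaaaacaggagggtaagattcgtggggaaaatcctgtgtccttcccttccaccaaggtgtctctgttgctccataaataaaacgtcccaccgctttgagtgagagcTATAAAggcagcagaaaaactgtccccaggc

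RefSeq start regions were matched for 54 of the 70 members. TATAAA on either strand was in 11 of these 54 regions (20.4%) and in 14.3% of the 27025 regions of all genes. Of the 14 matched carriers of the proximal, thick limb, distal and intercalated lists, 4 held TATAAA (Slc12a3, Slc13a2, Slc26a1 and Slc26a4). A match of letters is a description and not a binding site.

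Library totals were 106005614 to 157266455 counts in Six2-ENL whole kidneys, 115625561 to 137888792 in sorted Six2 cells at E14.5, 76510702 to 92026288 at E18.5, and 67137194 to 79343015 in Foxd1-ENL whole kidneys. Sorted Foxd1 cells were far shallower, at 2557443 to 3508381 counts, so only 31 of the 70 members passed the filter on low counts there, against 51 to 65 elsewhere. Levels are given as CPM (each count scaled to the library total after TMM normalisation). Mllt1 itself differed by less than 1.5-fold between mutant and WT in every comparison (log2 fold changes from -0.33 to -0.02), and counts per gene do not show which allele was read. WT replicate 3 of sorted E14.5 cells stood apart, with the highest summed macrophage markers (71.4 CPM in a WT range that began at 11.9) and the highest summed proximal tubule markers (28.6 against a lowest value of 8.01).

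A gene was called between genotypes at an adjusted p below 0.05 and a fold change above 1.5 (edgeR quasi-likelihood test, Benjamini-Hochberg adjustment over all genes tested), and between stages at an adjusted p below 0.01 and a fold change above 2. Over the 6 comparisons of a mutant with its WT, 39 of the 67 members tested in at least 1 of them were called at least once, against 22.3% of the 26283 genes so tested. Of the members, 23 were called only lower (11.2% of all genes), 13 only higher (9.40% of all genes) and 3 in both directions (Slc4a4, Slc4a5 and Slc8a1). A further 28 were tested and not called, and 3 stayed below the filter in each comparison. The map of fold changes shows direction by role. The tubule lists at the top were mostly lower at E18.5, and the neural and other carriers held most of the higher calls. Of the 18 widely expressed carriers, at most 2 were called in a comparison. That was in sorted Six2 cells at E18.5 (11.1% lower, where 5.54% of all genes tested fell), so few calls in this list are not far from the share of all genes.

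**Figure D1:**
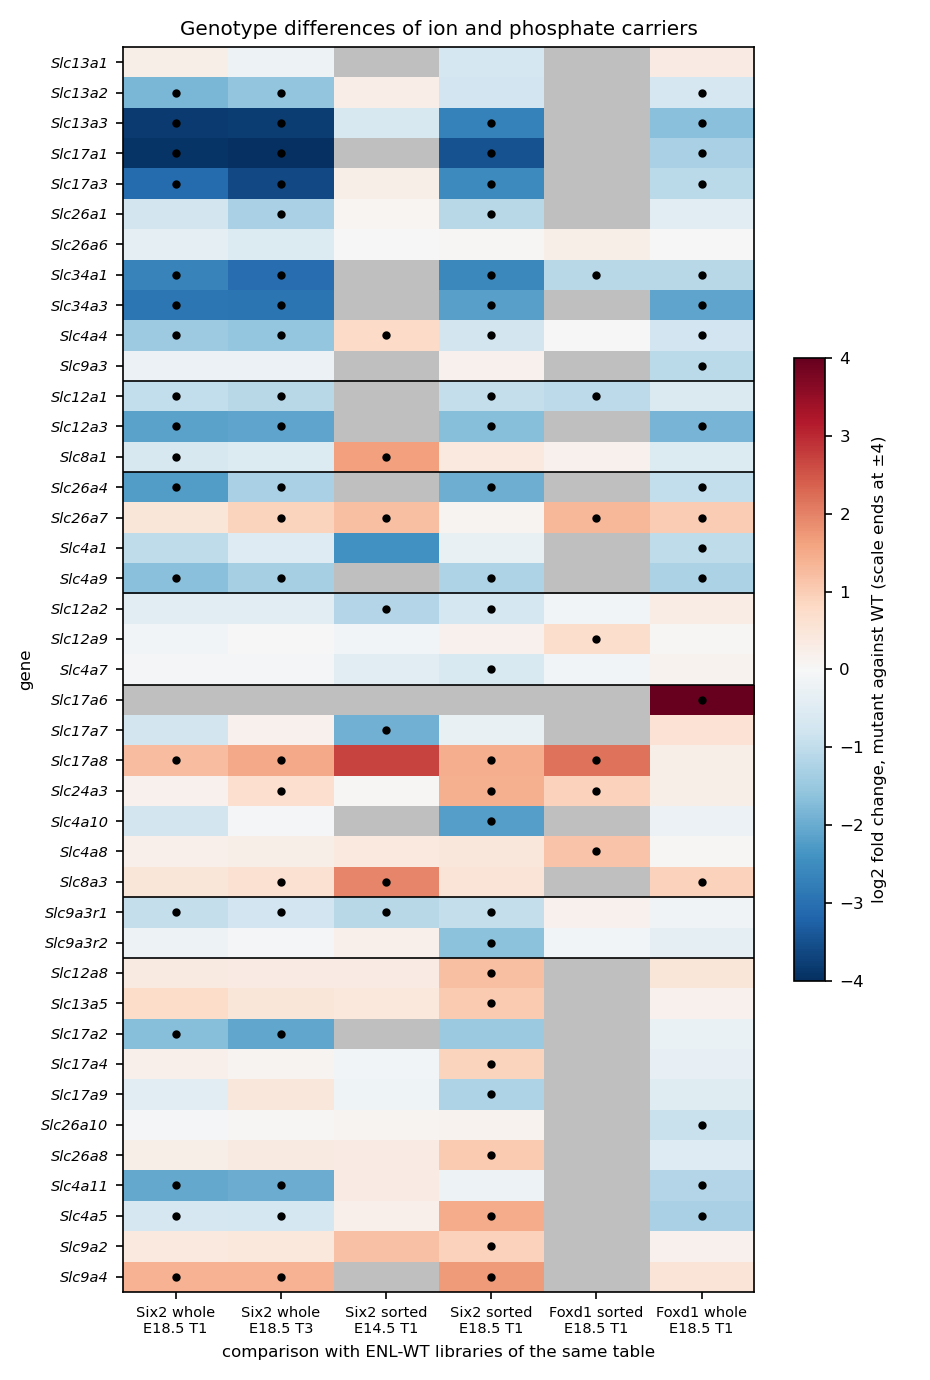
Each cell gives the log2 fold change of 1 gene (rows, grouped by lines into proximal tubule, thick limb and distal, intercalated, widely expressed, neural, non-carrier and other members) in 1 comparison of mutant with WT libraries (columns); red is higher and blue lower in the mutant, grey is below the filter, and a black dot marks a call. Shown are the 18 tubule carriers and each other member called at least once; 9 genes, Slc34a1 among them, carry a blue dot in all of the Six2 whole, Six2 sorted E18.5 and Foxd1 whole columns.

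In sorted Six2 WT cells most tubule carriers stood higher at E18.5 than at E14.5. Between these stages, 33 of 65 tested members rose in sorted Six2 WT cells (24.8% of all genes tested rose) and 2 fell (20.6% of all genes fell). The median log2 difference of the members was 1.19, and all of the lists of tubule carriers lay above it, with medians of 6.29 for the proximal list, 9.11 for the thick limb and distal list and 5.92 for the intercalated list. Of the 18 widely expressed carriers, 4 rose and 1 fell, with a median of 0.01.

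Slc34a1, the main sodium-phosphate cotransporter of the proximal brush border (chr13:55398187-55415592, GRCm38), stood at 0.0468, 0.0571 and 0.290 CPM in the WT libraries at E14.5 and at 192, 199 and 152 CPM at E18.5. The E14.5 library at 0.290 was the one that stood apart in proximal tubule markers. Slc17a1 went from at most 0.0382 CPM to 18.1, 17.4 and 13.7, and Slc4a4, the sodium-bicarbonate cotransporter, from 10.4, 6.41 and 8.33 to 84.2, 102 and 78.7 (a 10.6-fold rise, log2 3.40 ± 0.15 SE). The stages did not overlap for any of these carriers.

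Slc12a1, the salt carrier of the thick limb, had 1 count in the 3 E14.5 WT libraries together and 61.6, 140 and 132 CPM at E18.5. Slc4a9 and Slc26a4, which exchange anions in intercalated cells, had no count in the E14.5 WT libraries. Taken against a floor of 3 counts per library, their E18.5 levels were at least 156-fold and at least 45.3-fold higher. The calcium exchanger Slc8a1, present in many cell types and strong in the distal tubule, rose 13.2-fold.

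Among the members outside the tubule lists, Slc8a2, a plasma membrane sodium-calcium exchanger of neurons, rose 16.9-fold, from 0.670, 0.478 and 0.459 CPM to 10.5, 8.15 and 8.52. Slc4a7, a bicarbonate importer, rose 3.11-fold to 177, 200 and 234 CPM. Over all members, tubule lists included, 2 fell. They were Slc26a6, an anion exchanger of the proximal list that also carries oxalate (2.41-fold), and Slc20a2, a phosphate importer of most cells (2.05-fold). For Slc20a2 the fold change was at the threshold, and it dropped below 2 without E18.5 WT replicate 2 (log2 -0.99) or 3 (-0.97). The calls of Slc26a3 and Slc9a4 also depended on single libraries: without E14.5 WT replicate 1 the value for Slc26a3 was 4.34 (adjusted p = 0.0190), and without E18.5 WT replicate 2 that for Slc9a4 was 2.14 (adjusted p = 0.0117).

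Counts compare levels between genes only after division by exonic length. On that scale (mean CPM per kb in WT), Slc34a1 (145) and Slc12a1 (114) led the carriers in Six2-ENL whole kidneys, and Slc34a1 (204) and Slc12a1 (94.9) did so in Foxd1-ENL whole kidneys. In sorted E14.5 cells Slc12a2, the sodium-potassium-chloride cotransporter of most cells, came first among the carriers (64.3), and at E18.5 Slc12a2 (49.0) was followed by Slc34a1 (38.7). Sorted stromal cells led with Slc9a3r2 (23.3 CPM per kb), a scaffold and not a carrier, and Slc34a1 stood at 10.5 there.

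Whole Six2-ENL kidneys answer what the mutant in the nephron lineage changed in the organ at E18.5. In T1, 16 of 65 tested members fell (4.88% of all genes tested were called lower) and 2 rose (2.88% of all genes). In T3, 16 fell (5.28% of all genes) and 5 rose (4.34% of all genes). Both mutants are set against the same pair of WT libraries. Of the 33 pairs of libraries of a group, this pair had the highest chi-square per degree of freedom, a measure of disagreement beyond sampling noise. It was 159, against 13.2 for the T1 pair and 28.0 for the T3 pair, so the folds of both mutants rest on WT libraries that differ. In T1 the median log2 fold change of the members was -0.21, and that of all genes -0.01.

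The strongest falls were those of organic anion, dicarboxylate and phosphate carriers of the proximal tubule. Slc17a1 stood at 87.0 and 68.2 CPM in WT, 4.38 and 5.98 in T1 and 2.23 and 5.30 in T3. It was 15-fold lower in T1 (log2 -3.91 ± 0.36, adjusted p = 0.000475) and 20.5-fold lower in T3 (-4.36 ± 0.37, adjusted p = 0.000296). Slc13a3 (chr2:165405028-165473230), the basolateral dicarboxylate carrier, went from 35.1 and 19.7 CPM to 1.60 and 2.27 in T1 and 1.38 and 2.51 in T3. That is a fall of 14.2-fold and 14-fold. In both genes each mutant library lay far below the lower WT library.

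Slc34a1 stood at 813 and 548 CPM in WT, 92.3 and 120 in T1 and 83.9 and 79.4 in T3. It fell 6.41-fold in T1 (log2 -2.68 ± 0.20, adjusted p = 0.000179) and 8.33-fold in T3 (-3.06 ± 0.20, adjusted p = 0.000101). Slc34a3, the second renal phosphate carrier, fell 7.45-fold and 7.6-fold from a low WT level of 3.59 and 1.39 CPM. Slc34a2, the phosphate carrier known from lung and gut, did not pass the fold threshold (log2 0.57 and 0.55, adjusted p = 0.0170 and 0.0182). Slc4a4 fell 2.75-fold in T1 and 2.92-fold in T3, from 274 and 186 CPM to between 75.2 and 91.2 CPM in the mutants.

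Not every carrier of the proximal list moved. Slc9a3, the apical sodium-proton exchanger, stood at 25.7 and 24.5 CPM in WT, 19.7 and 22.4 in T1 and 24 and 19 in T3 (adjusted p = 0.243 and 0.277). The sulfate carrier Slc13a1 overlapped between the groups (10.1 and 5.99 CPM in WT against 9.12 and 9.79 in T1). In all, 7 of 11 proximal carriers fell in T1 and 8 in T3. The summed markers of proximal tubule identity (7 genes, among them Lrp2, Cubn and Aqp1) stood at 2123 to 2149 CPM in WT, 456 to 539 in T1 and 432 to 480 in T3, and all 7 of these markers fell in each mutant. Their part in the falls of the carriers was not tested.

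In the thick limb, Slc12a1 fell 1.99-fold in T1, from 628 and 686 CPM to 312 and 348, and 2.17-fold in T3, to 322 and 285. In the distal convoluted tubule, Slc12a3 fell 4.37-fold and 4.32-fold, from 92.9 and 80.7 CPM to between 17.2 and 22.6 CPM. Slc8a1 fell 1.57-fold in T1 and missed the fold threshold in T3 (log2 -0.55). The carriers of the intercalated list split. Slc4a9 fell 3.20-fold and 2.50-fold and Slc26a4, the chloride-bicarbonate exchanger of base-secreting cells, fell 4.68-fold and 2.48-fold. Summed ureteric tree markers (7 genes) were at 599 to 714 CPM in WT, 449 to 466 in T1 and 378 to 453 in T3. In T1 1 of them fell (Aqp2, the water channel of the collecting duct, log2 -1.87) and in T3 3 fell, with a part in these values that was not tested.

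Slc26a7, an anion exchanger of the same list, went the other way: 17.9 and 20.3 CPM in WT, 28.6 and 24.6 in T1, and 35.4 and 35.0 in T3. It rose 1.85-fold in T3 (log2 0.88 ± 0.10, adjusted p = 0.000936), and in T1 it missed the fold threshold (0.48 ± 0.10, adjusted p = 0.0165). Slc4a11, a membrane transporter of water and protons best known from the cornea, fell 4.13-fold in T1 and 3.95-fold in T3. Slc4a5, a sodium-bicarbonate cotransporter, fell 1.58-fold and 1.61-fold.

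**Figure D2:**
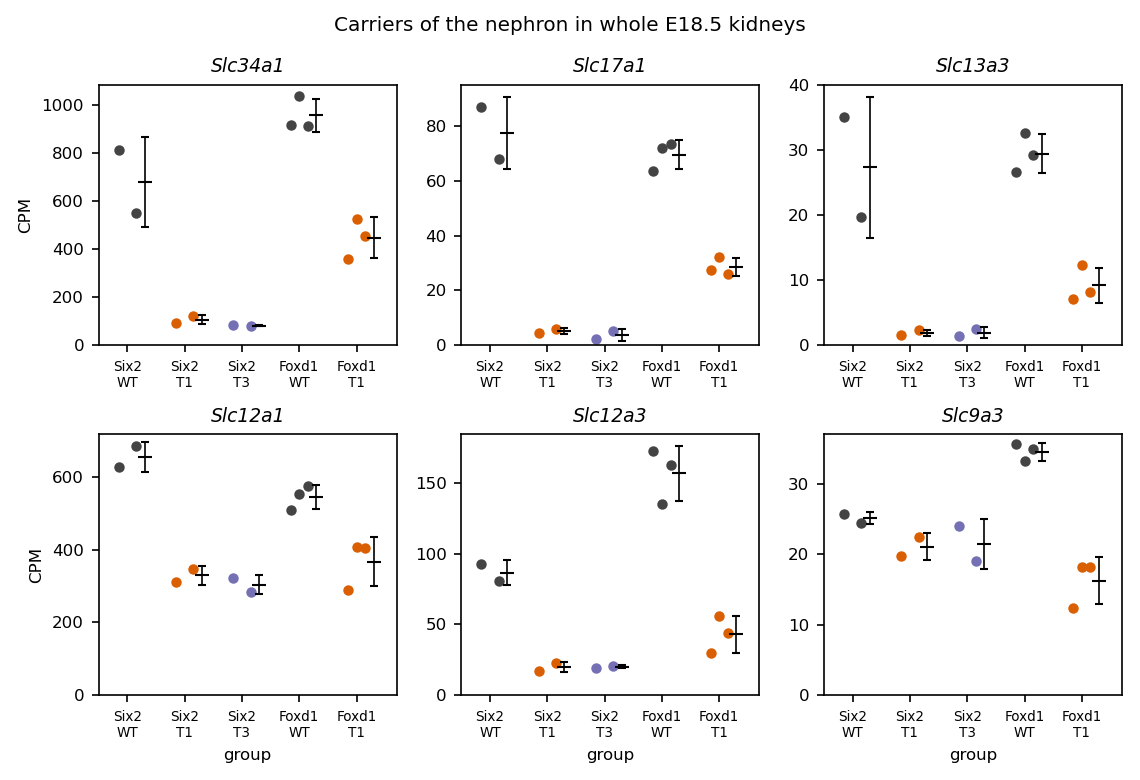
Levels (CPM, linear axes from 0) of 6 carriers in each whole-kidney library at E18.5: WT grey, T1 orange, T3 purple; the black bar beside each group is the mean ± SD. Slc34a1 lies at 548 or more in both Six2-ENL WT libraries and at 120 or less in the mutants, while Slc9a3 is called lower in Foxd1-ENL T1 and in neither Six2-ENL mutant.

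The members called higher in these kidneys were few. Slc17a8, a vesicular glutamate transporter, stood at 15.2 and 12.8 CPM in WT, 35.1 and 31.3 in T1 and 45.4 and 34.9 in T3 (2.37-fold and 2.86-fold higher). Slc9a4, a basolateral sodium-proton exchanger (chr1:40580081-40630725), stood at 3.39 and 2.63 CPM in WT against 7.83 to 8.06 in the 4 mutant libraries. The sodium-calcium-potassium exchanger Slc24a3 rose 1.59-fold in T3, and the sodium-calcium exchanger Slc8a3 1.52-fold. Summed neural markers were at 9.85 to 9.86 CPM in WT, 14.1 to 15 in T1 and 13.2 to 16.5 in T3. Summed macrophage markers were at 103 to 105 CPM in WT, 142 to 150 in T1 and 141 to 154 in T3, and 5 and 4 of the 6 rose. Summed stromal markers were at 2295 to 3007 CPM in WT, 2567 to 2768 in T1 and 2984 to 3243 in T3, and 1 and 2 of the 6 rose. The part of these markers in the higher values was not tested. None of the 18 widely expressed carriers was called in either mutant, where 2.88% and 4.34% of all genes tested rose and 4.88% and 5.28% fell.

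Several of the smaller falls and rises rested on single libraries. Without T1 replicate 1, Slc13a2 (log2 -1.44, adjusted p = 0.0780), Slc17a2 (-1.50, 0.0561), Slc34a3 (-2.78, 0.0554) and Slc4a5 (-0.63, 0.0784) were not called, and without WT replicate 2 Slc8a1 fell by 0.50 on the log2 scale. In T3, Slc8a3 was not called without any one of the 6 libraries of the table (adjusted p from 0.0504 to 0.157). Slc13a2, the apical citrate carrier, also missed the threshold without T3 replicate 1 (-1.60, adjusted p = 0.0932), as did Slc26a4 (-1.22, 0.0620), and without T3 replicate 2 so did Slc26a1 (-1.24, 0.0509).

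T3 set directly against T1 gave no called member of 65 (0.00418% of all genes tested were called in either direction). At an unadjusted p below 0.05 there were 6 members, and DESeq2 and the edgeR exact test also called 0. The lowest p was that of Slc24a3, at 19.7 and 18.8 CPM in T3 against 13.3 and 13.8 in T1 (log2 0.50 ± 0.09, adjusted p = 0.369).

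Sorted Six2 cells ask the same of the tdTomato+ lineage itself, at a stage before and a stage after most tubule carriers are on. At E14.5, 4 of 51 tested members rose (4.11% of all genes tested) and 3 fell (2.28% of all genes). The carriers that fell were Slc12a2 and the glutamate transporter Slc17a7, with the scaffold Slc9a3r1. Those that rose were Slc8a1, Slc8a3, Slc26a7 and Slc4a4. Each of the 7 calls was also made without WT replicate 3, the library that stood apart.

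Slc12a2, the carrier with the highest level per length in these cells, stood at 712, 785 and 609 CPM in WT and 309, 331 and 295 in T1. It fell 2.23-fold (log2 -1.16 ± 0.09, adjusted p = 0.000144). Slc9a3r1 fell 2.15-fold, from 153, 166 and 153 CPM to 69.6, 76.5 and 70.5. Neither gene overlapped between the genotypes. The nephron progenitor markers Six2 (log2 -0.84) and Osr1 (-1.17) fell as well, and the summed progenitor markers stood at 1654 to 1945 CPM in WT and 846 to 1045 in T1. Their part in these falls was not tested.

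Slc8a1 stood at 1.26, 2.92 and 1.99 CPM in WT and 6.53, 5.68 and 6.97 in T1, a 3.14-fold rise. Slc26a7 stood at 12.4, 9.07 and 12.2 CPM in WT and 26.3, 23.3 and 27.5 in T1, a 2.31-fold rise (log2 1.21 ± 0.13, adjusted p = 0.000895). Slc4a9 and Slc26a4, also of the intercalated list, had no count in these WT libraries, so Slc26a7 did not follow its list here. Which cells gave its level was not tested. Summed stromal markers were also higher in these T1 libraries, at 561 to 1078 CPM against 332 to 432 in WT, with 4 of the 6 called higher and 1 lower. Foxd1, listed as a marker of stromal progenitors, went the other way, from 135, 159 and 139 CPM in WT to 94.2, 66.3 and 59.5 in T1. Sorted Foxd1 WT cells at E18.5, another table and stage, held less of it, at 57.0 to 76.7 CPM. In these Six2 cells its fall is therefore not read as fewer stromal progenitors. The part of the stromal markers in the rises was not tested. Slc8a3 rose 3.87-fold from a WT level of 0.171 to 0.413 CPM, and Slc4a4 rose 1.69-fold, from 6.41 to 10.4 CPM in WT to 13.2, 14.1 and 14.6 in T1. The calls of Slc4a4 (log2 0.73, adjusted p = 0.0640), Slc8a3 (1.73, 0.0519) and Slc17a7 (-1.95, 0.0503) were lost without T1 replicate 3, that of Slc4a4 also without T1 replicate 1 or 2 (adjusted p = 0.0501 and 0.0568), and that of Slc17a7 also without WT replicate 2 (-1.62, 0.0557).

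The intercalated exchanger Slc26a4 gave a trace signal at E14.5. It had no count in the WT libraries and 0.134, 0.286 and 0.00718 CPM in T1, so that the T1 mean was at least 6.09-fold above the floor of 3 counts per library. It stayed under the filter and was not tested.

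At E18.5 the sorted cells held more calls. Of 63 tested members, 17 fell (5.54% of all genes tested) and 9 rose (6.14% of all genes). The median log2 fold change of the members was -0.15. The proximal list had 7 of 11 members lower and none higher, with a median of -1.12.

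Slc34a1 stood at 192, 199 and 152 CPM in WT and 30.8, 29.5 and 29.8 in T1. It fell 6.00-fold (log2 -2.59 ± 0.09, adjusted p = 8.32e-10). Slc17a1 fell 11.2-fold, from 18.1, 17.4 and 13.7 CPM to 1.22, 0.977 and 2.22, and Slc13a3 fell 6.53-fold, from between 3.39 and 5.66 CPM to between 0.576 and 0.812. The groups lay wide apart for all of these carriers, and the summed proximal tubule markers also stood lower, at 460 to 524 CPM against 1336 to 1802, with a part in the falls that was not tested.

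Slc12a3 fell 3.25-fold in these cells. Slc12a1 was called lower (1.95-fold, adjusted p = 0.0330), but its libraries overlapped, at 61.6, 140 and 132 CPM in WT against 85.6, 39.4 and 45.5 in T1. Without T1 replicate 2 (log2 -0.76, adjusted p = 0.147), T1 replicate 3 (-0.83, 0.139), WT replicate 2 (-0.77, 0.151) or WT replicate 3 (-0.82, 0.119) it was not called. DESeq2 (adjusted p = 0.156) and a replicate block (0.0620) also left it uncalled. Slc4a4 fell 1.65-fold, from 84.2, 102 and 78.7 CPM to 55.7, 49.3 and 55.1, having been higher in T1 at E14.5.

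Slc12a2 fell again (1.61-fold), and so did Slc9a3r1 (1.91-fold). Slc9a3r2, which was not called at E14.5, fell 3.15-fold, from 42.9, 42.1 and 40.2 CPM to 14, 14.1 and 11.4. Among carriers of neurons, Slc4a10, a sodium-bicarbonate transporter, fell 4.61-fold from 2.24, 1.77 and 2.27 CPM. The erythrocyte and intercalated exchanger Slc4a1 overlapped between the genotypes (0.783, 1.27 and 2.85 CPM in WT against 1.84, 1.29 and 0.812 in T1), while the summed red cell markers stood at 71.0 to 134 CPM in WT and 1013 to 1444 in T1.

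The 9 members that rose were mostly of low level. Slc24a3 went from 2.51, 3.02 and 1.89 CPM to 7.40, 6.17 and 6.11 (2.66-fold, log2 1.41 ± 0.18, adjusted p = 8.77e-05). Slc9a2 and Slc9a4, sodium-proton exchangers that neighbour each other on chromosome 1 with a gap of 49.8 kb, both rose: Slc9a2 from 7.89, 8.77 and 8.55 CPM to 18, 13.3 and 16.6, and Slc9a4 from 0.202, 0.458 and 0.241 to 1.03, 0.915 and 0.999. Slc4a5 rose 2.82-fold, to 4.35, 3.57 and 3.48 CPM, whereas it fell in whole kidneys of both drivers. That difference between sorted cells and whole kidneys was not tested.

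The others were the citrate carrier Slc13a5 (2.07-fold), Slc26a8 (2.09-fold), Slc12a8 (2.30-fold), Slc17a4 (1.86-fold) and Slc17a8 (2.74-fold). The summed markers of macrophages (59.7 to 74.8 CPM against 32.3 to 35.8) and neural cells (51.6 to 55.6 against 23.2 to 31.6) were higher in the same T1 libraries. Summed stromal markers were higher too (510 to 606 CPM against 232 to 359), with 3 of the 6 called higher and 2 lower. The part of all these markers in the rises was not tested. In one fit of all 12 sorted Six2 libraries the count of called members was 21 instead of 26, and Slc26a8 (log2 1.06, adjusted p = 0.0986), Slc17a8 (1.45, 0.0878) and Slc17a9 (-1.23, 0.0594) were among those not called. Some calls depended on single libraries. Without T1 replicate 3, Slc12a8 (log2 0.94, adjusted p = 0.11), Slc17a9 (-1.03, 0.0912) and Slc26a4 (-1.66, 0.0511) were not called. Without T1 replicate 1, Slc17a8 (1.40, 0.0527) and Slc17a9 (-1.11, 0.0854) were not, and Slc4a7 (-0.52) was under the fold threshold. Slc17a8 was also lost without T1 replicate 2 (1.40, 0.0557) and Slc12a8 without WT replicate 1 (1.00, 0.0530). Without WT replicate 3, Slc12a8 (1.09, 0.0639), Slc17a9 (-1.22, 0.0573), Slc26a4 (-1.62, 0.0617) and Slc4a7 (-0.50) were not, and without WT replicate 2 Slc17a9 was not (-1.11, 0.100).

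The 4 neighbours Slc17a2, Slc17a3, Slc17a1 and Slc17a4 lie on chromosome 13 in that order (chr13:23806993-23915009, GRCm38). The gaps between them are 14.3, 7.03 and 0.160 kb, and Slc17a4 is read from the opposite strand. The first of them, Slc17a2, fell 3.27-fold in T1 and 4.19-fold in T3 whole kidneys, and Slc17a3 fell 8.42-fold and 12.2-fold. Slc17a3 also fell in sorted E18.5 cells (5.92-fold) and in Foxd1-ENL whole kidneys (2.1-fold), where Slc17a2 was not called (log2 -1.48 and -0.28, adjusted p = 0.0890 and 0.328).

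Slc17a4, whose end is 0.160 kb from that of Slc17a1, did not fall with them. It stood at 7.70 and 6.07 CPM in Six2-ENL WT, 6.84 and 8.88 in T1 and 7.75 and 7.12 in T3, and in sorted E18.5 cells it rose from 3.04, 3.40 and 2.34 CPM to 6.26, 4.92 and 5.07 (log2 0.89 ± 0.18, adjusted p = 0.00259). In Foxd1-ENL whole kidneys it missed the fold threshold (-0.32 ± 0.11, adjusted p = 0.0408).

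**Figure D3:**
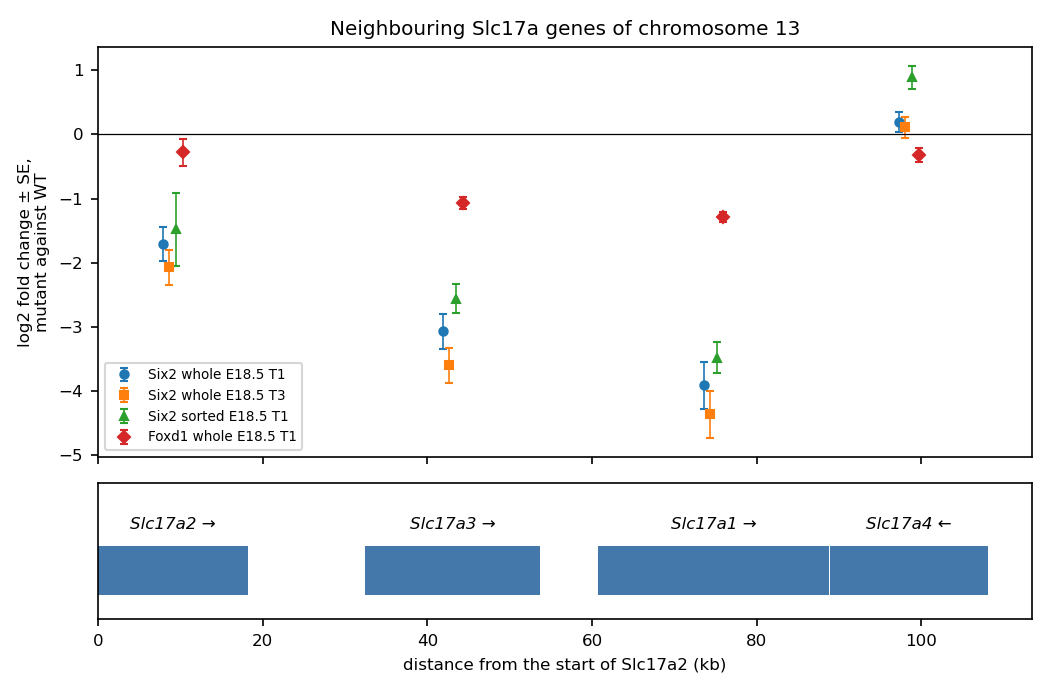
Upper panel: log2 fold change ± SE (mutant against WT) of the 4 neighbouring genes in 4 comparisons, placed at the middle of each gene; lower panel: the genes to scale in kb from the start of Slc17a2, arrows giving the strand. Slc17a3 and Slc17a1 lie below 0 in each comparison, and Slc17a4 lies at 0.89 in sorted E18.5 cells.

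Whether the effect of T1 differed between the stages was tested as an interaction in one fit of the 12 sorted Six2 libraries. It was called (adjusted p below 0.05, no fold threshold) for 3 of 65 members upward, meaning a more positive effect at E18.5 (3.94% of all genes tested), and for 8 downward (4.22% of all genes). Slc4a4 moved from higher in T1 at E14.5 to lower at E18.5 (interaction log2 -1.47 ± 0.20, adjusted p = 0.000391). Slc26a7 rose at E14.5 and stood at 43.3, 45.4 and 49.0 CPM in WT against 47.7, 48.1 and 51.4 in T1 at E18.5 (-1.10 ± 0.15, adjusted p = 0.000520).

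Slc8a1, Slc13a3, Slc17a5, Slc26a1 and Slc26a4 and the scaffold Slc9a3r2 (-1.85 ± 0.13, adjusted p = 1.62e-06) also had a more negative effect at E18.5. In the other direction, Slc24a3 overlapped between the genotypes at E14.5 (3.56, 3.92 and 3.50 CPM in WT, 3.97, 4.15 and 3.14 in T1) and rose at E18.5 (1.37 ± 0.25, adjusted p = 0.00421), and the falls of Slc12a2 and Slc17a7 were smaller at E18.5. For tubule carriers that were low at E14.5 the call depended on the method. DESeq2 also called Slc12a1 (-5.25, adjusted p = 0.00658) and Slc12a3 (-2.31, 0.0240). Without the filter on low counts, edgeR also called Slc34a1 (-2.40, 0.0194), Slc17a3 (-2.84, 0.00631) and Slc12a1 (-4.87, 0.0325).

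The number of called members depended on single libraries, being 7 without E14.5 T1 replicate 3, E18.5 WT replicate 2 or E18.5 T1 replicate 2, and 16 without E14.5 WT replicate 3. The calls of Slc17a7 (log2 1.66, adjusted p = 0.0720), Slc12a2 (0.44, 0.0578), Slc13a3 (-2.02, 0.0711) and Slc26a1 (-1.16, 0.0544) were lost without E14.5 T1 replicate 3, and each of these was also lost without other single libraries.

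**Figure D4:**
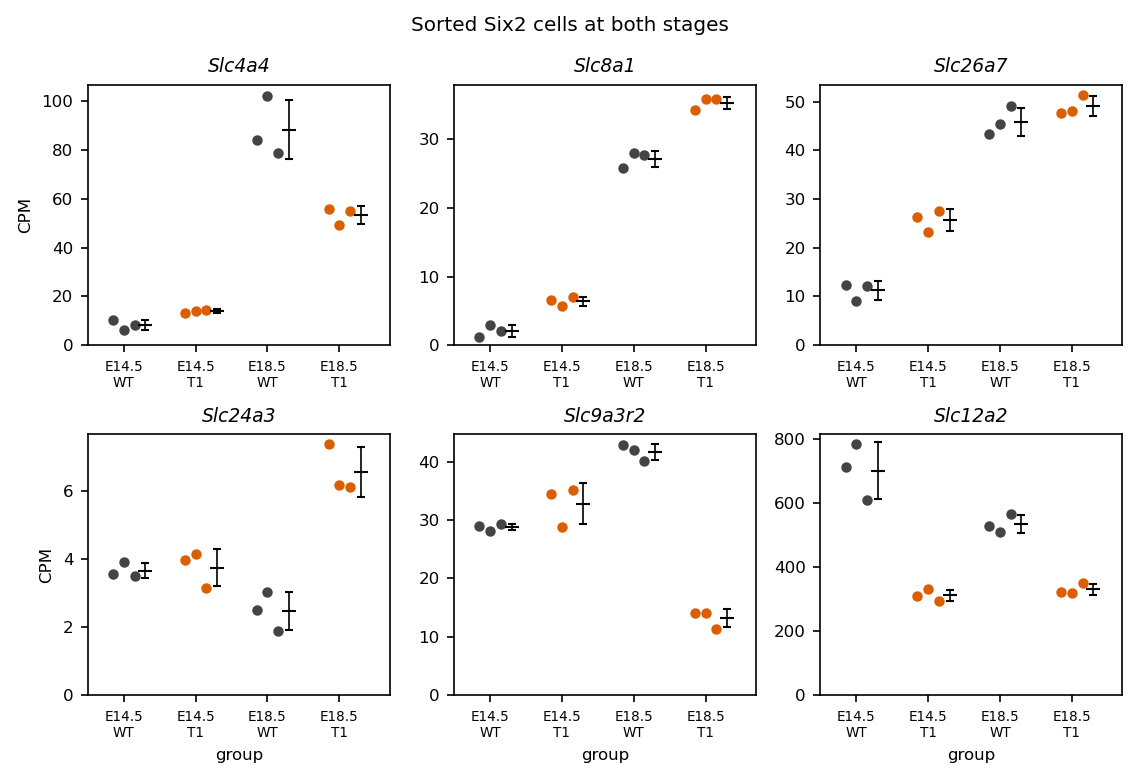
Levels (CPM, linear axes from 0) of 6 members with a stage by genotype interaction in each sorted Six2 library: WT grey, T1 orange; the black bar beside each group is the mean ± SD. Slc4a4 is higher in T1 at E14.5 and lower at E18.5, Slc26a7 differs at E14.5 only by the test, and Slc24a3 is higher in T1 at E18.5 only by the test.

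Foxd1-ENL kidneys ask what happened when the mutant was switched on in the stromal lineage. In sorted tdTomato+ cells, 5 of 31 tested members rose (3.66% of all genes tested) and 2 fell (2.17% of all genes). The rises were those of Slc17a8, Slc26a7, Slc4a8, Slc24a3 and Slc12a9. Summed stromal markers stood at 4861 to 6610 CPM in WT and 4892 to 5473 in T1, and 2 of the 6 stromal markers fell, Tcf21 (log2 -0.98) and Pdgfrb (-0.72). Their part in the values of the members was not tested.

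Slc17a8 stood at 3.33, 4.09, 7.64 and 3.98 CPM in WT and 21.5, 20, 23.4 and 18.4 in T1. It rose 4.49-fold (log2 2.17 ± 0.22, adjusted p = 1.79e-06), and the genotypes did not overlap. Slc26a7 stood at 7.78, 7.59, 8.04 and 5.79 CPM in WT and 19.3, 19.3, 16.2 and 19.7 in T1, a 2.54-fold rise (1.34 ± 0.17, adjusted p = 3.04e-05). Slc4a8, a sodium-dependent chloride-bicarbonate exchanger, rose 2.19-fold, from 3.33, 3.50, 3.62 and 2.53 CPM to 8.53, 6.99, 6.83 and 6.45.

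Slc24a3 rose 1.90-fold, from 7.78 to 9.65 CPM in WT to 13.7 to 19.0 CPM in T1. The rise of Slc12a9, a cotransporter-like member of the chloride family, was smaller (1.63-fold) and was not called without T1 replicate 2 (log2 0.61, adjusted p = 0.0893) or 4 (0.62, 0.0813). Summed macrophage markers were at 67.3 to 161 CPM in WT and 155 to 220 in T1, with a part in these rises that was not tested.

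The pair of members that fell in the sorted stromal cells are carriers of tubules. Slc34a1 stood at 87.8, 58.6, 22.9 and 27.9 CPM in WT and 25.2, 31.0, 15.5 and 23.6 in T1, and Slc12a1 at 56.4, 42, 26.5 and 17.7 against 25.2, 9.98, 8.27 and 27.1. The genotypes overlapped for both, the WT libraries spread widely, and the summed proximal tubule markers were at 106 to 229 CPM in WT and 57.2 to 94.9 in T1. The part of these markers in the falls was not tested.

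Without WT replicate 1 the value of Slc34a1 was -0.66 (adjusted p = 0.116) and that of Slc12a1 was -0.73 (0.169), against -1.10 and -1.05 with all libraries. Slc34a1 was also not called without WT replicate 2 (-1.02, 0.0773) or T1 replicate 1 (-1.13, 0.0546), 3 (-0.95, 0.105) or 4 (-1.09, 0.0859), and Slc12a1 without WT replicate 2 (-0.97, 0.117) or T1 replicate 2 (-0.84, 0.179) or 3 (-0.83, 0.158). DESeq2 called neither (adjusted p = 0.213 and 0.327).

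In whole Foxd1-ENL kidneys, 15 of 65 tested members fell (7.53% of all genes tested) and 3 rose (2.65% of all genes). Slc34a1 stood at 918, 1037 and 913 CPM in WT and 358, 527 and 455 in T1, a 2.14-fold fall (log2 -1.10 ± 0.11, adjusted p = 5.78e-06). Slc34a3 fell 4.31-fold, from 6.13, 5.87 and 5.24 CPM to 1.29, 1.55 and 1.15. The summed proximal tubule markers were at 1941 to 1965 CPM in WT and 1065 to 1304 in T1, and 4 of the 7 fell. Their part in the falls of the carriers was not tested.

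Slc9a3, which was not called in Six2-ENL kidneys, fell 2.12-fold here, from 35.7, 33.2 and 34.9 CPM to 12.4, 18.2 and 18.2. The difference between the drivers in whole kidneys was not tested. Slc13a3 fell 3.20-fold, Slc17a1 2.44-fold and Slc4a4 1.69-fold. Slc26a1, a sulfate carrier, missed the fold threshold (log2 -0.43, adjusted p = 0.00296). In the distal convoluted tubule Slc12a3 fell 3.64-fold, from 173, 135 and 163 CPM to 29.5, 55.8 and 44.0.

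Slc12a1, at 511, 554 and 576 CPM in WT and 290, 408 and 405 in T1, was just under the fold threshold (log2 -0.57 ± 0.10, adjusted p = 0.000930), and with a replicate block it passed (-0.59). The intercalated carriers Slc4a9 (2.40-fold), Slc4a1 (2.02-fold) and Slc26a4 (2.00-fold) fell. Summed ureteric tree markers (7 genes) were at 759 to 878 CPM in WT and 507 to 564 in T1, with Aqp2 called lower (log2 -1.92) and 1 other of the 7 called higher. Their part in these falls was not tested. Slc26a7 rose 2.01-fold, from 13.6, 13.2 and 13.5 CPM to 26.6, 28.4 and 26. Slc4a5 (2.45-fold) and Slc4a11 (2.26-fold) fell as in the Six2-ENL kidneys, and Slc26a10 fell 1.87-fold. Slc26a10 was not called without WT replicate 1 (-0.67, adjusted p = 0.0686), and Slc13a2, which fell 1.59-fold, was under the fold threshold without T1 replicate 1 (-0.48).

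The vesicular glutamate transporter Slc17a6 (chr7:51622006-51671119) had no count in any Foxd1-ENL WT library. In whole T1 kidneys it was at 1.49, 1.05 and 0.994 CPM, at least 29.3-fold above a floor of 3 counts per library (adjusted p = 2.69e-06). In sorted Foxd1 cells it stayed under the filter, with 2.22, 0, 2.16 and 0.645 CPM in T1 and 0 in all 4 WT libraries. In the Six2 groups it was at 0.0501 CPM or less. Of the 4 neural markers tested in whole Foxd1-ENL kidneys, 1 was called higher and 1 lower, with log2 fold changes from -0.76 to 1.32. Elavl4 rose (log2 0.66), from 7.18, 7.25 and 8.58 CPM to 15.6, 12.4 and 8.46, so its libraries overlapped. The summed neural markers stood at 15.1 to 17.5 CPM in WT and 15.2 to 21.4 in T1, and their part in the value of Slc17a6 was not tested. Slc8a3, the remaining riser, went from 1.04, 0.957 and 0.75 CPM to 1.72, 1.73 and 1.75.

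**Figure D5:**
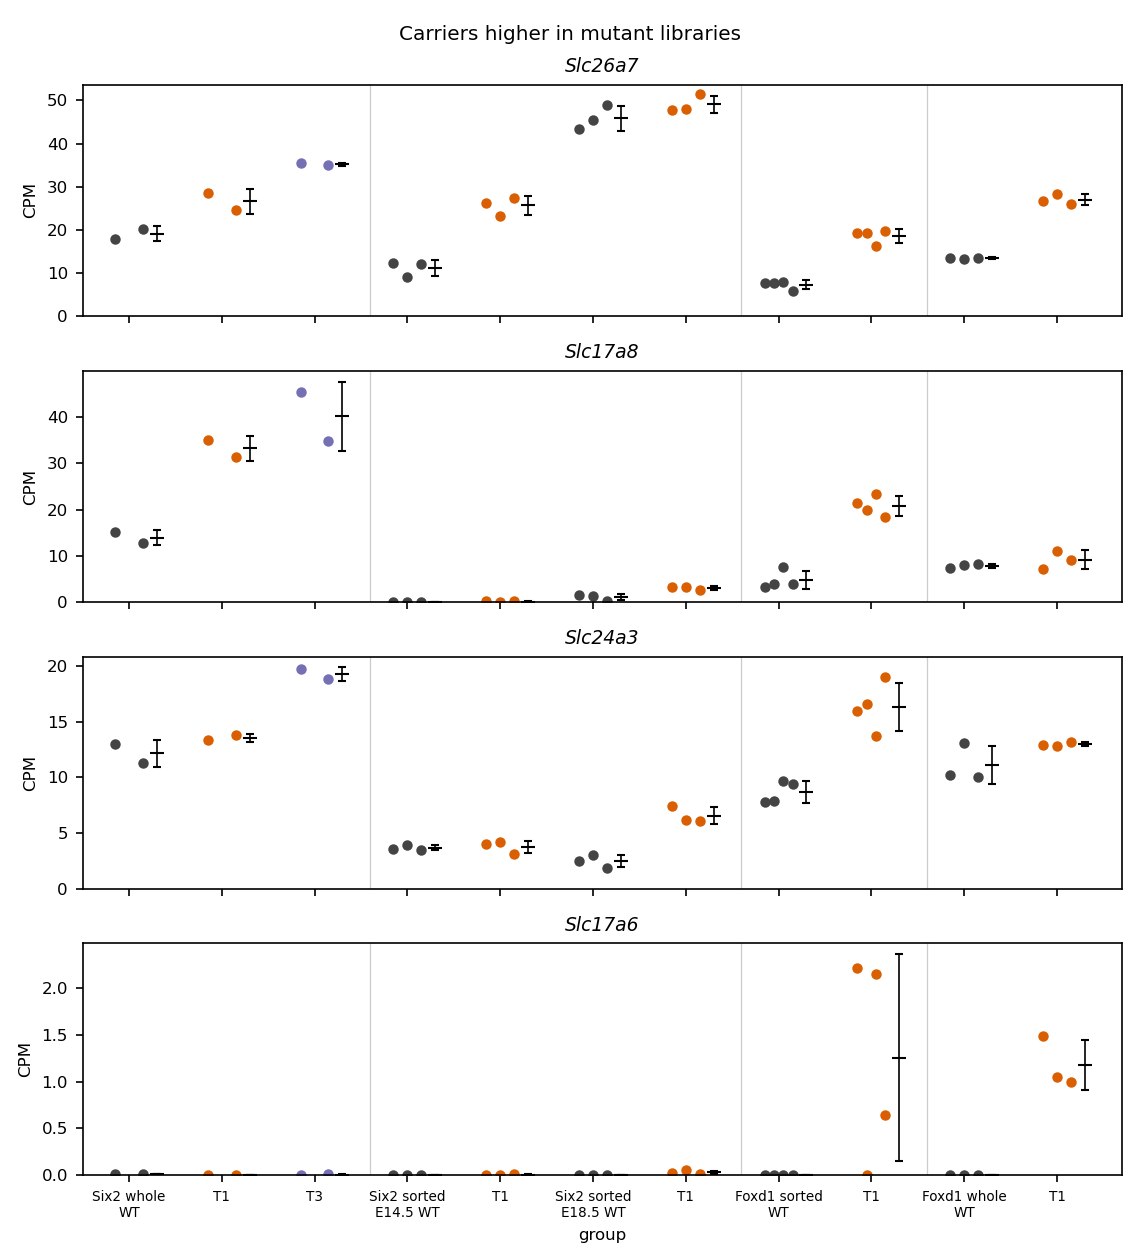
Levels (CPM, linear axes from 0) of 4 carriers in each library of the 11 groups: WT grey, T1 orange, T3 purple; the black bar beside each group is the mean ± SD, and thin lines separate the tables. Slc26a7 is higher in every mutant group except sorted Six2 cells at E18.5 by the test (in Six2 whole T1 under the fold threshold), and Slc17a6 is seen only in Foxd1-ENL T1 libraries above 0.0501.

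Seen across the groups, 9 members fell in Six2-ENL T1 and T3 whole kidneys, in sorted Six2 cells at E18.5 and in Foxd1-ENL whole kidneys: Slc12a3, Slc13a3, Slc17a1, Slc17a3, Slc26a4, Slc34a1, Slc34a3, Slc4a4 and Slc4a9. Tested in all 4 comparisons were 62 members and 19070 genes, and 286 of these genes (1.5%) were called lower in all 4. The T1 and T3 comparisons share their WT libraries. In one fit of all 12 sorted Six2 libraries, Slc34a3 (log2 -2.19, adjusted p = 0.0583) and Slc26a4 (-1.96, 0.135) were not called in sorted E18.5 cells, which leaves 7 of the 9. Slc26a7 was called higher in T3 whole kidneys, in sorted Six2 cells at E14.5 and in both Foxd1-ENL comparisons.

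The effect of T1 in sorted cells at E18.5 was also compared between the drivers, as a lineage by genotype interaction over 43 tested members. It was called toward a more positive effect in Foxd1 cells for 9 (8.25% of all genes tested) and toward a more negative one for 1 (7.63% of all genes). Slc26a7 had the lowest adjusted p among the carriers (log2 1.22 ± 0.16, adjusted p = 1.52e-05), being higher in T1 in Foxd1 cells and not called in Six2 cells (0.10 ± 0.07, adjusted p = 0.396). The neuronal chloride extruder Slc12a5 stood at 0.556, 0.875, 1.21 and 0.362 CPM in Foxd1 WT and 5.93, 2.33, 4.68 and 1.29 in T1, and overlapped in Six2 cells (2.29 ± 0.55, adjusted p = 0.00562). It was below the filter when Foxd1 cells were tested alone.

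Slc34a1, Slc13a3, Slc4a4, Slc12a2, Slc17a5, Slc9a3r1 and Slc9a3r2 had a more positive effect in Foxd1 cells, and Slc17a4 had a more negative one. The lineages were sequenced as separate tables of very unequal depth, so lineage and table cannot be told apart in the levels. The call of Slc17a4 was lost with DESeq2 (log2 -1.85, adjusted p = 0.0611), without the filter on low counts (-1.81, 0.0948) and without any one of 9 single libraries (adjusted p from 0.0506 to 0.0961). The calls of Slc13a3 (1.60, 0.0927) and Slc4a4 (0.55, 0.0731) were lost without Foxd1 T1 replicate 2. Both were also lost without Foxd1 T1 replicate 4, Foxd1 WT replicate 2 or Six2 T1 replicate 2. That of Slc13a3 was lost without Foxd1 T1 replicate 1 as well. DESeq2 left Slc34a1 at an adjusted p of 0.0510.

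Genes that act with these carriers were followed in 4 further lists. The shares of all genes tested that were called lower were 4.88% in T1, 5.28% in T3 and 7.53% in Foxd1-ENL whole kidneys. In sorted cells they were 2.28% for Six2 at E14.5, 5.54% for Six2 at E18.5 and 2.17% for Foxd1. Of 8 genes of phosphate handling, 5 fell in each of T1 and T3 whole kidneys, sorted Six2 cells at E18.5 and Foxd1-ENL whole kidneys, and none rose. They were Kl, the coreceptor for the phosphate hormone FGF23 (log2 -2.90 in T1 and -2.13 in Foxd1-ENL whole kidneys), Cyp27b1 and Cyp24a1, which make and break down active vitamin D (-4.32 and -3.38 in T1), the parathyroid hormone receptor Pth1r (-1.57) and the brush border scaffold Pdzk1 (-2.03). In sorted Foxd1 cells 2 of 7 fell, Kl (-1.98) and Cyp27b1 (-2.64). Between stages in WT cells 6 of 8 rose (24.8% of all genes tested).

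Of 8 acid-base partners, 4 fell in each of the same 4 comparisons and none rose. In T1 whole kidneys they were the carbonic anhydrases Car12 (log2 -1.64) and Car14 (-0.90) and the proton pump subunits Atp6v0a4 (-1.34) and Atp6v1g3 (-1.55). Foxi1, the transcription factor of intercalated cells, fell in sorted E18.5 cells (-3.01). At E14.5, 3 of the 5 tested fell (Car4, Car12 and Car14).

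Of 13 tested channels, claudins and calcium handling genes of the thick limb and distal tubule, 9 fell in T1, T3 and Foxd1-ENL whole kidneys and 8 in sorted E18.5 cells, again with none higher. Kcnj10, the basolateral potassium channel that distal salt uptake needs, fell in T1 (log2 -0.94) and in Foxd1-ENL whole kidneys (-1.15). The calcium channel Trpv5 fell by 1.42 and 1.86 and the calcium binding protein S100g by 1.66 and 1.81 on the log2 scale. In sorted Foxd1 cells 2 of 7 fell (Kcnj1 and Umod).

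The kinases and ubiquitin ligase parts that regulate Slc12a1 and Slc12a3 were the last list. None of the 8 was called in T1, T3 or sorted E18.5 cells, where 2.88%, 4.34% and 6.14% of all genes tested were called higher. Given these shares and those called lower, no call among 8 genes is not unusual. The summed level of the 8 was at 1102 to 1215 CPM in Six2-ENL WT and 1073 to 1114 in T1 whole kidneys. In Foxd1-ENL whole kidneys 2 fell, Wnk4 (log2 -0.67) and Sgk1 (-0.88). At E14.5 Klhl3 rose (1.08) and Cul3 fell (-0.73), with 4.11% of all genes tested called higher and 2.28% lower.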

How the data were processed

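RNA-seq counts per gene were used as the authors deposited them, in 4 count tables. Per the labels and the study's methods, reads were aligned to mm10 with HISAT2 and counted with HTSeq without regard to strand. Whole kidneys were sequenced from stranded mRNA libraries and sorted cells from SMART-Seq ultra-low-input libraries. The annotation release was not given in the sources used here, so symbols and places came from GENCODE vM21 (55536 of 55806 identifiers matched). Start regions came from RefSeq (GRCm38.p6), which held none for 16 members.

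Groups and replicate numbers followed the labels. Each table was filtered with edgeR 4.0.16 (filterByExpr, minimum count 10, total 15), normalised by TMM and tested by the quasi-likelihood test in R 4.3.3, with p-values adjusted by Benjamini-Hochberg over all genes tested. The thresholds were an adjusted p of 0.05 and a fold change of 1.5 between genotypes, 0.01 and 2 between stages, and 0.05 alone for interactions. Fold changes are given on the log2 scale with SE. DESeq2 1.42.0, the edgeR exact test, other scalings, no filter, other sets of libraries, a replicate block and each library left out were the alternatives. The test was checked on simulated counts. The members and lists were chosen with earlier results of these data known. Named were the called members and the tubule carriers, and a few others in view of their values. Same-numbered libraries across groups correlated between -0.0791 and 0.0997 in their deviations, which gives no sign of pairing by number. Such correlations cannot exclude a shared litter or shared processing. The 33 pairs of libraries of a group correlated between 0.974 and 0.993, and none agreed within sampling noise (lowest chi-square per degree of freedom 1.36). The highest such value, 159, was that of the WT pair of Six2-ENL whole kidneys. Floors and intervals cover counting error only. Some items, 1 member among them, are not reported here.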

Additional observations from a re-analysis of the deposited data

Results flagged for a closer look

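In the sorted Foxd1 groups, the only ones of 4 libraries, 62 sets of member values were examined for a single library far from the rest, and 3 stood out where chance alone gives about 1 in 20. Slc26a7 was at 16.2 CPM in T1 replicate 3 and at 19.3 to 19.7 in the other T1 libraries. Slc9a3r2 was at 35.6 CPM in T1 replicate 1 and at 62.3 to 64.0 in the others. Slc9a9 was at 1.81 CPM in WT replicate 4 and at 5.00 to 5.25 in the others.

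The effect of T1 in sorted Six2 cells differed between E14.5 and E18.5 for 11 members (interaction in edgeR's quasi-likelihood test, adjusted p below 0.05). It was more positive at E18.5 for Slc17a7 (log2 1.63), Slc24a3 (1.37) and Slc12a2 (0.48). It was more negative for Slc13a3 (-2.07), Slc9a3r2 (-1.85), Slc4a4 (-1.47), Slc8a1 (-1.25), Slc26a1 (-1.18), Slc26a7 (-1.10), Slc17a5 (-0.63) and Slc26a4. The value of Slc26a4 (-8.88) depends on the prior count, since its E14.5 WT libraries held no count.

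The effect of T1 at E18.5 differed between sorted Foxd1 and sorted Six2 cells for 10 members. It was more positive in Foxd1 cells for Slc12a5 (log2 2.29), Slc13a3 (1.77), Slc9a3r2 (1.51), Slc34a1 (1.47), Slc26a7 (1.22), Slc9a3r1 (1.08), Slc17a5 (0.72), Slc4a4 (0.68) and Slc12a2 (0.55), and more negative for Slc17a4 (-1.83). Slc17a5, the lysosomal sialic acid carrier, fell short of a call in each lineage alone, at 22.0, 21.8 and 19.0 CPM in Six2 WT against 15.5, 13.4 and 14.7 in T1.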

How the results depend on the processing

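No called member changed its direction under any alternative. Of the alternatives other than a left-out library, 940 results for called members kept their call and 19 lost it, and with a library left out 1181 kept it and 107 lost it. The number of called members moved by more than 1.5 times in few cases. Without the filter on low counts it was 1 for T3 against T1 (Slc26a4, log2 0.90) and 11 for sorted Foxd1 cells, where it was 7 with the filter. For sorted E14.5 cells it was 11 with DESeq2 and 12 in the fit of all 12 sorted Six2 libraries, against 7. With each library left out in turn, the counts ran from 13 to 21 for T1 and 19 to 23 for T3 whole kidneys, 5 to 8 for sorted E14.5 cells, 22 to 25 for sorted E18.5 cells, 5 to 7 for sorted Foxd1 cells, 17 to 22 for Foxd1-ENL whole kidneys, 33 to 36 between stages, 7 to 16 for the stage interaction (11 with all libraries) and 7 to 11 for the lineage interaction, and were 0 for T3 against T1. Where this left 1 library in a group, it was assumed to vary like the other groups. The cause of these shifts was not tested.

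With a replicate block the counts were 18, 20, 0, 8, 25, 7, 20, 36 and 10 for T1, T3, T3 against T1, sorted E14.5, sorted E18.5, sorted Foxd1, Foxd1-ENL whole, the stages and the stage interaction. The replicate block lost the calls of Slc8a3 in T3 (adjusted p = 0.0581), Slc12a1 in sorted E18.5 cells (0.0620) and Slc17a7 in the stage interaction (0.0667). The correlations of same-numbered libraries gave no sign that replicate numbers pair these libraries, but they cannot exclude it. Depth limits sorted Foxd1 cells most, where 3 counts amount to about 1 CPM.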
